A study of Mus musculus with 9 samples.

Results

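Foxj3-ES is a line of J1 mouse ESCs that stably expressed Foxj3, a forkhead transcription factor, and its transcriptome was compared with that of control J1 ESCs. The comparison used the 3 Foxj3-ES libraries and the 3 control libraries, 6 of the 9 libraries of the series. The other 3 came from Zbtb18-ES, a J1 line that stably expressed the zinc finger factor Zbtb18, and are given beside the results as a second line. Control ESCs were labelled wild type, and both expressing lines were made with a lentivirus that carries puromycin resistance and the coding sequence cloned from J1 cDNA. The sources used here name no empty vector for the controls, so the vector, the selection and Foxj3 itself cannot be told apart. The sources used here name no differentiation treatment for the sequenced cells. The study grew its ESCs without feeders and serum, with knockout serum replacement and LIF. J1 is a male ESC line. Whether a line was 1 clone or a pool, and whether the 3 libraries of a group were separate cultures, is not given. The spread behind each p-value is that of these samples and may be technical.

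Libraries made from extracted total RNA were sequenced on an Ion Proton, and the deposited value of a gene is its RPKM scaled by the upper quartile of the library (UQRPKM). Every difference below is Foxj3-ES minus control on the scale of log2(UQRPKM + 1), with its standard error (SE) after ± and n = 3 libraries per group. A gene is said to rise or fall where limma, fitted to the 22268 genes that reached a UQRPKM of 1 in 3 or more of the 9 libraries, gave an adjusted p under 0.05. Libraries are numbered by their replicate, and values per library are in the order 1, 2 and 3.

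Forkhead factors bind DNA through a winged helix domain, and members of the family act in metabolism, the cell cycle, stress responses and differentiation. Foxj3 has been studied mainly in muscle and in the male germ line, and much less is known of it in ESCs. ESCs themselves are held in self-renewal by LIF acting through Stat3, and signals through FGF and ERK, Wnt, Nodal and Notch move them towards or away from differentiation. The functional lists below were assembled from common knowledge of such pathways but with earlier results of these data known, and none holds the candidate genes of the study. Their shares beside those of all genes are therefore a description and were not tested.

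The transcript that was to be expressed set the lines apart little. Foxj3 stood at 124, 145 and 115 in control ESCs and 119, 168 and 177 in Foxj3-ES, a difference of 0.26 ± 0.18, adjusted p = 0.388 that did not pass the test, and at 94.001, 87.6 and 105 in Zbtb18-ES. The highest control library (145) lay above the lowest Foxj3-ES library (119), and an exact two-sided permutation test of 3 libraries against 3 gave p = 0.3, where 0.1 is the smallest it can give. Rescaling the libraries to the same sum turned the difference of Foxj3 to -0.087. The level of Foxj3 RNA therefore does not check the label of the line, and the table does not separate transcripts of the vector from those of the gene.

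The libraries differed in the worth of a read and in composition between the groups. One read, judged by the steps between low values, was worth 1.16 to 1.43 times as much in the Foxj3-ES libraries as in control library 1. In the controls it was worth 0.922 to 1.05 times as much. A given UQRPKM thus rested on fewer reads in the Foxj3-ES libraries. The step also depends on the upper quartile of a library, so it does not measure depth, and the absolute number of reads is not known. The UQRPKM of a library summed to 6229490 to 6874840 in control ESCs and 8086200 to 8416870 in Foxj3-ES, and the 100 highest genes held 24.8% to 25.2% and 29.9% to 30.2% of it. When all libraries were rescaled to the same sum, the median difference over all genes moved from -0.035 to -0.35. Control library 2 was set off among the controls by a tilt with GC content: its genes in the top decile of GC content lay 0.97 above those in the lowest on the log2 scale, against 0.04 and 0.091 in control libraries 1 and 3. Foxj3-ES library 3 stood apart by the Y chromosome. The summed UQRPKM of Eif2s3y, Ddx3y and Uty, the Y-linked genes of this male line, was 582, 353 and 513 in control ESCs and 525, 697 and 4.55 in Foxj3-ES, so the last library held 0.943% of the control mean. In Zbtb18-ES the sum was 21.7, 367 and 272. No Y-linked gene passed the test, and the results that follow are therefore also given without Foxj3-ES library 3 where its loss changes them.

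Of the 22268 genes tested, 1679 (7.54%) were higher and 1562 (7.01%) were lower in Foxj3-ES. Without Foxj3-ES library 3 there were 1194 and 1150. With each other library left out there were 937 higher and 754 lower without control library 1, 963 and 765 without control library 3, 974 and 777 without Foxj3-ES library 1, 1152 and 1015 without Foxj3-ES library 2, and 1787 and 1237 without control library 2. Rescaling to the same sum gave 874 higher and 4695 lower genes, so the counts on both scalings are given for the lists in which more genes rose than fell. In the lists where genes fell, described further below, rescaling added lower calls, took away some of the few higher ones and turned none of these lists round. Of the genes typed as mRNA, 920 were higher and 1346 lower of 15049, with a median difference of -0.10, but 1291 higher and 1156 lower after adjustment for length and GC content described next.

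The calls followed the length, the GC content and the level of the genes. Among mRNA genes with a known length, 17.1% of the shortest decile (154 to 1270 bases) were higher and 3.49% lower, and of the longest decile 1.44% were higher and 10.8% lower. The median length was 1991 bases for mRNA genes that rose, 3852 bases for those that fell and 3194 bases for all. Of the decile richest in GC 18.5% of genes were lower, and of the poorest 2.81% were. Of the most highly expressed decile 20.8% were higher. The part of these properties in the results below was not tested beyond an adjustment for transcript length and GC content within each library, which left 1723 higher and 1405 lower genes and which is given beside a list where it moved the larger count of calls or the printed median by over 1.5 times.

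**Figure D1:**
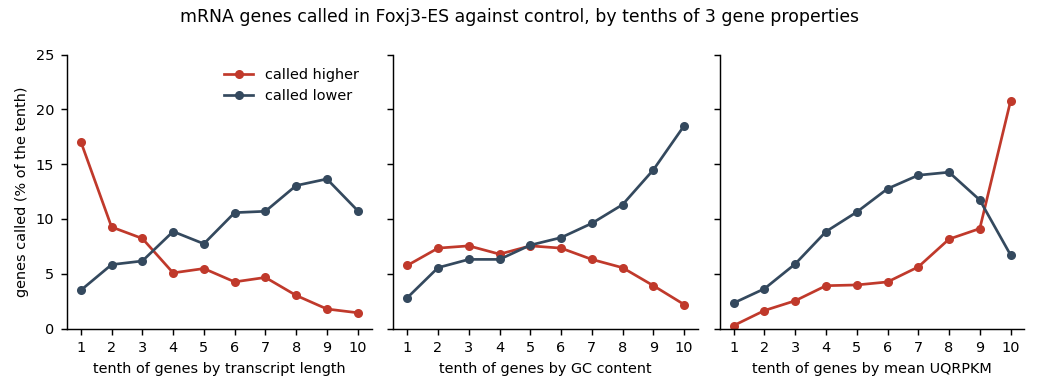
Share of mRNA genes called higher (red) and lower (dark blue) in Foxj3-ES against control ESCs, in % of each decile of the genes ordered by transcript length, GC content and mean UQRPKM. The share called higher fell from 17.1% in the shortest decile to 1.44% in the longest, and the share called lower rose from 2.81% in the decile poorest in GC to 18.5% in the richest.

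Genes of the hypoxia response rose in Foxj3-ES. Cells that lack oxygen stabilise HIF factors, which bind the core ACGTG beside genes of blood vessel growth, collagen modification and glycolysis. Of these genes 9 of 20 tested members were higher and 0 were lower, against 7.54% and 7.01% of all genes, with a median difference of 0.63 against -0.035 over all genes tested. The count was 8 to 9 with 1 library left out, 9 higher and 0 lower after adjustment for length and GC content, 9 higher and 0 lower after quantile normalization and 8 higher and 4 lower after rescaling to the same sum. The median difference of Zbtb18-ES from control for these genes was 0.30.

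Promoters of 4 of these genes that rose hold ACGTG on one strand or the other within the 300 bases of RefSeq (GRCm38.p6) that run from 250 before to 50 after the start site, and a window of each is shown to place the core, in capitals, relative to the start.
P4ha2, chr11:54100834-54100862, plus strand: tgtgcatcgcatACGTGcagcgcgtggcg
P4ha1, chr10:59323268-59323296, plus strand: tgtgacagagcgCACGTagcgagggctgc
Higd1a, chr9:121857747-121857765, minus strand: ccgcccaggcctCACGTct
Ankrd37, chr8:45999840-45999868, minus strand: cagtgtttgggtACGTGaggccgcagcgg
The core shown began 78 bases before the start site in P4ha2, 16 before it in P4ha1 and 6 before it in Ankrd37. In Higd1a it began 43 bases after the start site. In P4ha1 and Higd1a it lies on the opposite strand and reads CACGT. A second core, not shown, began 10 bases after the start site in P4ha2 and 241 before it in Ankrd37. Of the 14 listed genes with a promoter in the table, 9 held the core (64.3%), against 25.1% of 10820 promoters of tested mRNA genes. It was in 4 of the 7 that rose and in 5 of the 7 that were not called, so its presence did not separate them.

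Adm, which encodes the vessel-dilating peptide adrenomedullin (chr7:110627661-110629820 of GRCm38), changed most. Its UQRPKM was 46.02, 64.5 and 48.1 in control ESCs and 233, 256 and 348 in Foxj3-ES (2.37 ± 0.28, adjusted p = 0.00118), and the groups were well apart. It was also higher than in Zbtb18-ES, where it stood at 116, 59.4 and 60.3 (1.86, adjusted p = 0.0233), a call lost without Foxj3-ES library 1 or 2 or 3 (highest adjusted p = 0.0748). P4ha2 and P4ha1 encode catalytic subunits of the enzyme that hydroxylates proline in collagen. P4ha2 rose from 109, 153 and 101 to 242, 373 and 425 (1.49 ± 0.24, adjusted p = 0.004) and P4ha1 from 167, 206 and 157 to 403, 393 and 454 (1.24 ± 0.15, adjusted p = 0.00142). Every Foxj3-ES library lay above every control library for both genes. The stress gene Ndrg1 rose by 1.43, the mitochondrial protein gene Higd1a by 1.19, the vascular growth factor gene Vegfa by 1.02, the lipid droplet gene Hilpda by 0.96 and the oxidoreductase gene Ero1l by 0.95. These 8 genes kept their call with any 1 library left out. Ankrd37 rose by 0.94 (adjusted p = 0.0221), a call lost without control library 2 or 3 or Foxj3-ES library 1 or 2 (highest adjusted p = 0.075).

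Glycolytic enzymes moved less far and less stably. Here 8 of 25 tested members were higher and 0 were lower, with a median difference of 0.40, but the list held 0 higher and 5 lower after rescaling to the same sum and 3 higher and 2 lower after quantile normalization, so its direction depends on the scaling. The count was 1 to 9 with 1 library left out, 1 without control library 3 or Foxj3-ES library 2 and 2 without control library 1 or Foxj3-ES library 1 or 3. The aldolase gene Aldoc rose from 676, 731 and 611 to 1283, 1051 and 977 (0.71 ± 0.14, adjusted p = 0.00904) and kept its call without each library, though not after rescaling (adjusted p = 0.0695). The enolase gene Eno1 stood at 7544, 9525 and 7197 in control ESCs and 13270.2, 14392 and 13722 in Foxj3-ES (0.78 ± 0.19, adjusted p = 0.0241), the lactate dehydrogenase gene Ldha at 13566, 12806 and 9751 in control ESCs and 18099, 18903 and 21987 in Foxj3-ES (0.72 ± 0.19, adjusted p = 0.0315). No library of one group overlapped the other in either gene, yet the call of Eno1 was lost without control library 1 or 3 or Foxj3-ES library 1 or 2 or 3 (highest adjusted p = 0.0914) and that of Ldha without control library 1 or 3 or Foxj3-ES library 1 or 2 or 3 (highest adjusted p = 0.125). Ldhb, for the other subunit of lactate dehydrogenase, rose by 0.58 (adjusted p = 0.0409), a call lost without control library 2 or 3 or Foxj3-ES library 1 or 2 (highest adjusted p = 0.136). It was higher than in Zbtb18-ES by 0.90 (adjusted p = 0.0415), a call lost without control library 3 or Foxj3-ES library 1 or 2 or 3 (highest adjusted p = 0.113).

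**Figure D2:**
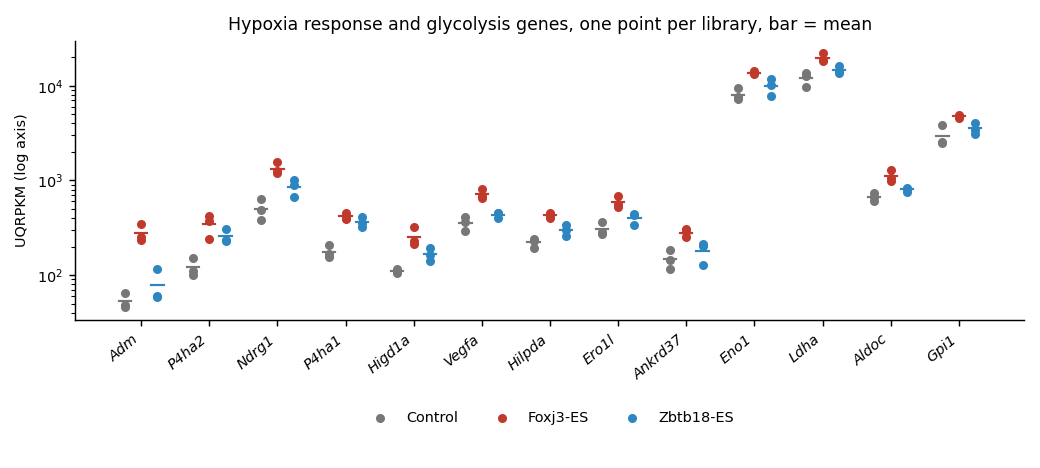
UQRPKM (log axis) of 9 hypoxia response genes and 4 glycolytic genes, with 1 point per library and a bar at the mean of control ESCs (grey), Foxj3-ES (red) and Zbtb18-ES (blue). Adm stood at 46.02 to 64.5 in control ESCs and 233 to 348 in Foxj3-ES, and the 3 Zbtb18-ES libraries, at 59.4 to 116, lay below Foxj3-ES.

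Genes of the response to amino acid shortage and other stress, many of them targets of the factor Atf4, rose in part. Of these, 7 of 29 tested members were higher and 0 were lower, with a median of 0.22 (0.43 after adjustment for length and GC content), and 5 higher and 5 lower after rescaling to the same sum. The count was 3 to 8 with 1 library left out, 3 without control library 1 or 3 or Foxj3-ES library 1. Ddit3, which encodes the stress factor CHOP, stood at 80.7, 129 and 73.3 in control ESCs and 519, 286 and 333 in Foxj3-ES (1.99 ± 0.25, adjusted p = 0.00168). The hormone gene Stc2 rose by 0.98 and the mitochondrial folate enzyme gene Mthfd2 by 0.85, and all 3 kept their call without each library, while Mthfd2 alone lost it after rescaling (adjusted p = 0.0518). Chac1 and Nupr1, further genes of the stress response, rose by 2.003 and 2.06, with calls lost without control library 1 or 3 or Foxj3-ES library 1 or 3 (highest adjusted p = 0.0888) and without control library 1 or 3 or Foxj3-ES library 1 or 3 (highest adjusted p = 0.0702). Of the chaperone and unfolded protein genes of the endoplasmic reticulum 4 were higher and 1 was lower of 23, but 1 higher and 5 lower after rescaling to the same sum, and the higher count was 0 to 5 with 1 library left out, 0 without control library 3 or Foxj3-ES library 1 and 1 without control library 1 or Foxj3-ES library 2 or 3. The lower one was Xbp1, the factor that drives the unfolded protein response (-1.05, adjusted p = 0.0106). Mat2a, the enzyme that makes the methyl donor S-adenosylmethionine, fell from 644, 506 and 650 to 150, 193 and 141 (-1.89 ± 0.16, adjusted p = 0.000308).

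Antioxidant genes split. In the list of glutathione enzymes and targets of the factor NRF2, 9 of 24 tested members were higher and 3 were lower, with a median of 0.43, and 6 higher and 6 lower after rescaling to the same sum. The thioredoxin gene Txn1 stood at 854, 1118 and 1044 in control ESCs and 2639, 2549 and 3050.4 in Foxj3-ES (1.45 ± 0.16, adjusted p = 0.000915). Gstm2 and Gstm1, which encode glutathione transferases, rose by 1.38 and 1.14, the ferritin gene Fth1 by 1.12, the superoxide dismutase gene Sod1 by 1.11 and the glutathione peroxidase gene Gpx4 by 1.03. By contrast, Gsr, which regenerates reduced glutathione, fell by 0.81 on the log2 scale, and the sulfiredoxin gene Srxn1, an NRF2 target, fell by 1.297. These 8 genes kept their calls without each library, and the 6 that rose also kept them after rescaling to the same sum. Of the listed heat shock chaperones 3 were higher and 1 lower of 20, but 2 higher and 6 lower after rescaling to the same sum. The mitochondrial co-chaperone gene Hspe1 rose by 1.45. Of the small heat shock protein genes, Hspb1 fell by 1.54 on the log2 scale, whereas Cryab rose by 1.37 (adjusted p = 0.0177). The call of Cryab was lost without control library 1 or 3 or Foxj3-ES library 1 or 3 (highest adjusted p = 0.0649).

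Cytosolic ribosomal protein genes rose in large number. Of these, 45 of 81 tested members were higher and 0 were lower, 79 differences were above 0, and the median was 0.82, while Zbtb18-ES had a median of 0.43 over the same genes. The count was 28 to 44 with 1 library left out, 28 without Foxj3-ES library 1 and 29 without control library 1, 41 higher and 0 lower after adjustment for length and GC content, 26 higher and 0 lower after rescaling to the same sum and 19 higher and 0 lower after quantile normalization. The members have a median length of 1059 bases and a median UQRPKM of 3290, and both the shortest and the most highly expressed genes were often called higher at large. Rpl21 stood at 188, 289.7 and 234 in control ESCs and 799.8, 594 and 940.3 in Foxj3-ES (1.71 ± 0.22, adjusted p = 0.0017), and Rps12 at 479.8, 796 and 574 in control ESCs and 1819.5, 1676 and 1867 in Foxj3-ES (1.56 ± 0.23, adjusted p = 0.00295). Both encode parts of the ribosome and showed no overlap between the groups. Fau, which encodes a ribosomal protein fused to a ubiquitin-like one, rose by 1.63, Rps23 by 1.48 and Rps6, the subunit phosphorylated by S6 kinase, by 1.32. Rpl37 rose by 1.297 and lay 0.85 above Zbtb18-ES (adjusted p = 0.0429), a call lost without control library 1 or 3 or Foxj3-ES library 1 or 2 or 3 (highest adjusted p = 0.117). Rpl13 rose by 1.27 and lay 1.27 above Zbtb18-ES (adjusted p = 0.0317), a call lost without control library 3 or Foxj3-ES library 1 or 2 or 3 (highest adjusted p = 0.0994). Many ribosomal protein genes have processed pseudogenes of near identical sequence, and how reads that fit several copies were counted is not given, so these values are uncertain.

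Transcripts of ribosomal protein genes usually start within a run of pyrimidines, through which their translation is controlled by growth signals. Windows of 30 bases around the RefSeq start site (GRCm38.p6) of 3 genes that rose show such a run in capitals.
Rps6, chr4:86857352-86857381, minus strand: agcggaagtcgggCCTCTTTTTCgtgacgc
Rps9, chr7:3704027-3704056, plus strand: ccgccttgTCTCTCTTTgtctcgggcctga
Rpl28, chr7:4792951-4792980, plus strand: cgcctctcgtgTCTCTCTTTCCgtctccgg
A run of 6 or more C or T that reached to within 5 bases of the start was found in 30 of 60 promoters of the list (50%) and in 20.8% of all 10820. Genes that rose held it in 15 of 34 cases and genes that were not called in 15 of 26.

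The respiratory chain showed opposite differences for its nuclear and its mitochondrial genes. Of the nuclear genes for its subunits, 22 of 77 tested genes were higher and 0 were lower, with a median of 0.38, 11 to 25 with 1 library left out, 11 without control library 1. After rescaling to the same sum there were 12 higher and 6 lower, so part of the list changed direction there, 12 higher and 4 lower after quantile normalization and 20 higher and 2 lower with a median of 0.24 after adjustment for length and GC content. Uqcrb, a subunit of complex III, stood at 704, 887 and 880.3 in control ESCs and 2949, 3172 and 2736 in Foxj3-ES (1.85 ± 0.17, adjusted p = 0.000475). The ATP synthase gene Atp5l rose by 1.96 and the complex I genes Ndufb2, Ndufb3 and Ndufs4 by 1.203, 1.19 and 1.18. Mitochondrial ribosomal protein genes were raised less, with 13 higher and 2 lower of 76, but 6 higher and 12 lower after rescaling to the same sum. Those higher numbered 7 to 14 with 1 library left out, 7 without control library 1 or 3 or Foxj3-ES library 1 or 2, and those lower 1 to 3 with 1 library left out, 1 without control library 1 or 3 or Foxj3-ES library 1 or 2. Mrpl21 rose by 1.48 and Mrpl13 by 1.46, whereas Mrpl37 fell by 0.73 on the log2 scale.

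The mitochondrial genome itself encodes 13 proteins, all of them parts of the respiratory chain or the ATP synthase. This group was singled out after its values were seen. Of the 13 mRNAs, 5 fell, all of complex I or complex III, and none rose, with 5 to 6 with 1 library left out. The annotation used here gave these genes no length under the names in the table, so the adjustment for length does not cover them. The complex I gene ND1 stood at 15617, 17046 and 16336 in control ESCs and 7196, 8716 and 6391 in Foxj3-ES (-1.15 ± 0.18, adjusted p = 0.00374). CYTB, the cytochrome b of complex III, stood at 12114, 12448 and 12659 in control ESCs and 5560.2, 6554 and 5218 in Foxj3-ES (-1.11 ± 0.16, adjusted p = 0.00263). In both genes the lowest control library lay far above the highest Foxj3-ES library. ND2, ND4 and ND4L fell by 1.23, 1.25 and 1.44 on the log2 scale. These 5 genes kept their calls with any 1 library left out and after rescaling. The others did not pass the test. Their differences were -0.77 for ND3, -0.53 for ND5 and 0.08 for ND6, -0.23, -0.094 and -0.16 for the cytochrome oxidase subunits COX1 to COX3, and -0.34 and -0.50 for the ATP synthase subunits. In Zbtb18-ES, ND1 stood at 8753, 9729 and 11569 and CYTB at 7627, 7901 and 9455, between the other groups in their means.

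**Figure D3:**
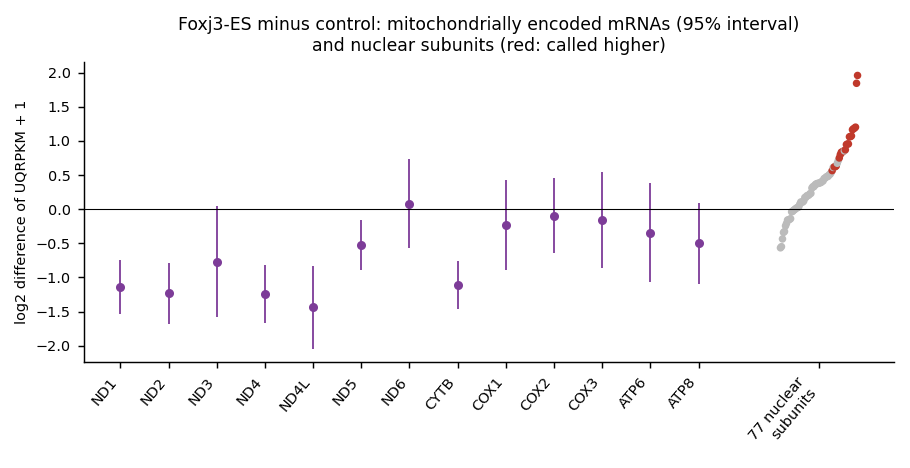
Difference of Foxj3-ES from control ESCs on the log2(UQRPKM + 1) scale for the 13 mitochondrially encoded mRNAs (points with 95% intervals from limma) and, at the right, for the 77 nuclear genes of respiratory chain and ATP synthase subunits in order of their difference (red where called higher). ND1, ND2, ND4, ND4L and CYTB lie between -1.44 and -1.11, and no nuclear gene was called lower.

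Lysosomal genes rose more often than they fell. Lysosomes digest material taken up by the cell or delivered by autophagy, and many of their genes answer to the factor Tfeb. In this list 11 of 31 tested members were higher and 1 was lower, with a median of 0.35 (Zbtb18-ES minus control, 0.60). The count was 5 to 12 with 1 library left out, 5 without control library 1 or 3 or Foxj3-ES library 3 and 6 without Foxj3-ES library 1 or 2, and 5 higher and 3 lower after rescaling to the same sum. The protease gene Ctsl rose from 401, 498 and 435 to 1132, 969 and 1062 (1.25 ± 0.23, adjusted p = 0.00709), Ctsa by 0.99, Ctsz by 0.80 and Ctsd by 0.66, and the sialidase gene Neu1 by 0.93. Ctsd lost its call after rescaling (adjusted p = 0.091). Tfeb itself was the 1 member that fell, from 166, 282 and 202 to 64.5, 65.6 and 88.9 (-1.54 ± 0.22, adjusted p = 0.00263). Of the autophagy genes 6 were higher and 2 lower of 25, but 0 higher and 6 lower after rescaling to the same sum, and those that fell were Ulk1 (-0.81) and Atg13 (-0.72), parts of the kinase that starts autophagy. The count of those that rose was 0 to 5 with 1 library left out, 0 without Foxj3-ES library 1, 1 without control library 1 or 3 and 3 without Foxj3-ES library 2 or 3. Proteasome subunits had 7 higher and 0 lower of 33, but 0 higher and 3 lower after rescaling, and 3 to 7 with 1 library left out, 3 without control library 1 or 3 and 4 without Foxj3-ES library 1 or 2.

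Genes for annexins, S100 proteins and galectins were another group with many rises. Annexins bind membranes in the presence of calcium, S100 proteins are small calcium sensors and galectins bind sugars at the cell surface. Of the annexins, S100 proteins and galectins, 13 of 25 tested members were higher and 1 was lower, with a median of 0.82 (Zbtb18-ES minus control, 1.02). The count was 6 to 12 with 1 library left out, 6 without control library 1 or Foxj3-ES library 2, 7 without Foxj3-ES library 1 and 8 without control library 3, 11 higher and 1 lower after adjustment for length and GC content and 9 higher and 1 lower after rescaling to the same sum. Anxa2 stood at 425, 563 and 415 in control ESCs and 2158, 1922 and 2001 in Foxj3-ES (2.13 ± 0.15, adjusted p = 0.000125) and at 2969, 2687 and 2519 in Zbtb18-ES. Its S100 partner S100a10 rose by 0.81, S100a13 by 1.88 and Anxa4 by 0.90. The largest rise of the list was that of S100a6 (3.03). Anxa1 rose by 2.29, a call lost without Foxj3-ES library 1 or 2 or 3 (highest adjusted p = 0.067).

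The contractile cytoskeleton did not move in one direction. It is controlled by the serum response factor Srf, which binds CArG boxes with coactivators of the Mkl family that sense free actin. Of its listed targets and contractile proteins, 8 of 42 tested members were higher and 5 were lower, with a median of 0.082, but 5 higher and 14 lower after rescaling to the same sum and 5 higher and 9 lower after quantile normalization. The higher count was 4 to 8 with 1 library left out, 4 without control library 1 or 3 or Foxj3-ES library 3 and 5 without Foxj3-ES library 1, and the lower count 3 to 5 with 1 library left out, 3 without Foxj3-ES library 1. Tagln, an actin-binding protein of smooth muscle, stood at 7.07, 20.4 and 11.96 in control ESCs and 164, 116 and 206 in Foxj3-ES (3.604 ± 0.42, adjusted p = 0.00118), the tropomyosin genes Tpm2 and Tpm4 rose by 1.37 and 0.71, and the myosin light chain gene Myl6 by 0.90. The coactivator gene Mkl1 fell from 108, 175 and 103 to 42.1, 40.1 and 51.5 (-1.47 ± 0.23, adjusted p = 0.00355), the myosin light chain kinase gene Mylk by 1.87 on the log2 scale and the cytoplasmic actin gene Actg1 by 0.67. Srf fell by 0.88 on the log2 scale (adjusted p = 0.0262), a call lost without control library 2 or 3 or Foxj3-ES library 1 (highest adjusted p = 0.0878) and after adjustment for length and GC content (-0.32). The higher genes of the list that have a promoter in the table (6) held no CArG box within its 300 bases, and 2 of the 4 lower ones, Srf and Actg1, did. The box is in capitals in the windows below, which run to 10 bases on either side.
Srf, chr17:46556225-46556254, minus strand: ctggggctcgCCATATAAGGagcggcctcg
Srf, chr17:46556205-46556234, minus strand: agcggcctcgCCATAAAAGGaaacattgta
Actg1, chr11:120348566-120348595, minus strand: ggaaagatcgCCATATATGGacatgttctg
CArG boxes were in 6 of 34 promoters of the list (17.6%) and in 1.27% of all 10820. Members that were not called held a box in 4 of 24 cases (16.7%). The counts are small, and whether the box goes with the direction of change was not tested. The distal box of Srf began 82 bases and the proximal one 62 bases before the start site, and the box of Actg1 began 90 bases before it.

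Epithelial genes showed a few large rises. Of the list of simple epithelium and keratins 5 were higher and 2 lower of 37, with a median of 0.15, but 3 higher and 6 lower after rescaling to the same sum and 8 higher and 0 lower with a median of 0.36 after adjustment for length and GC content. Those higher numbered 3 to 6 with 1 library left out, 3 without control library 1 or 3 or Foxj3-ES library 1 or 2 or 3, and those lower 0 to 1 with 1 library left out, 0 without control library 2 or 3 or Foxj3-ES library 1 or 2 or 3 and 1 without control library 1. Krt19 stood at 133, 149 and 118 in control ESCs and 496, 507 and 672 in Foxj3-ES (2.05 ± 0.33, adjusted p = 0.00416), and Krt20 at 1.94, 2.03 and 1.79 in control ESCs and 12.4, 6.79 and 16.3 in Foxj3-ES (2.06 ± 0.42, adjusted p = 0.0114), both intermediate filament proteins of simple epithelia. Among collagens and laminins Col7a1, the anchoring fibril collagen of skin, rose by 1.63, whereas the laminin chain gene Lama1 and the perlecan gene Hspg2 fell by 0.90 and 1.23 on the log2 scale, 3 calls that held without each library. H19, an imprinted noncoding RNA of the fetus expressed from the maternal allele, rose from 78.98, 98.4 and 68.2 to 274, 379 and 338 (2.003 ± 0.23, adjusted p = 0.00117). Of the imprinted genes listed 3 were higher and 1 was lower of 37 (8.11% and 2.7%, against 7.54% and 7.01% of all genes). There were 2 higher and 3 lower after rescaling to the same sum and 7 higher and 0 lower after adjustment for length and GC content. Those higher numbered 2 to 4 with 1 library left out, and those lower 0 to 1 with 1 library left out, 0 without control library 1 or 2 or 3 or Foxj3-ES library 2 or 3. The other 2 rises were Ascl2 (1.09), a factor of the trophoblast that kept its call, and Sgce (0.98), whose call was lost without any 1 of the 6 libraries (highest adjusted p = 0.098).

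**Figure D4:**
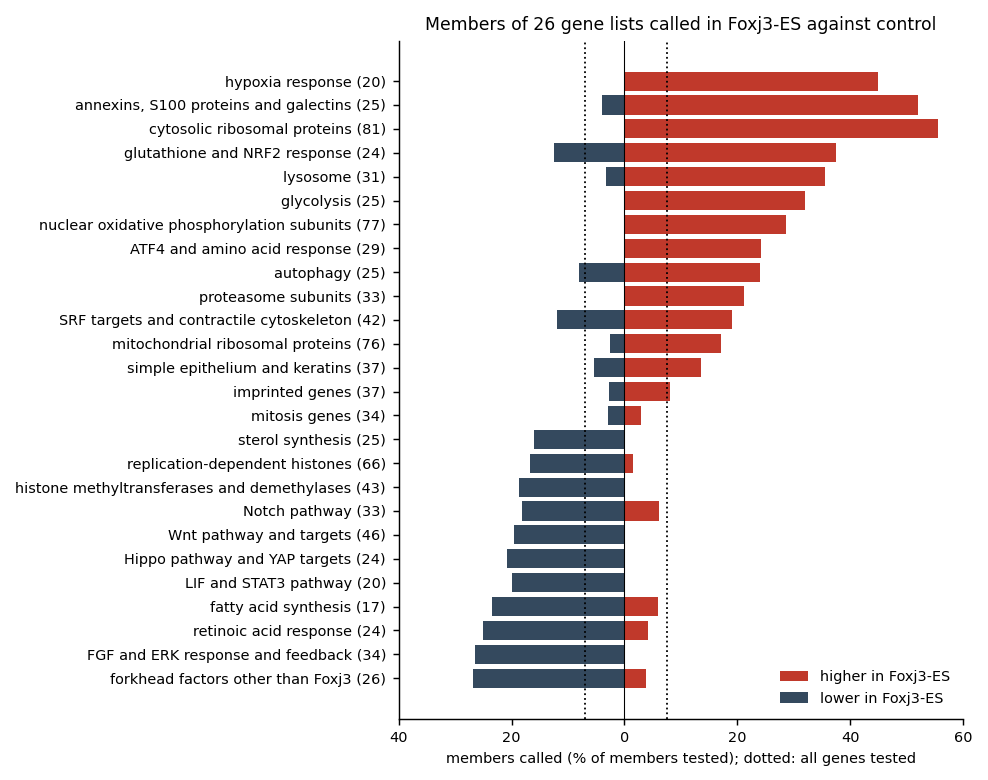
Members called higher (red, to the right) and lower (dark blue, to the left) in Foxj3-ES against control ESCs, in % of the tested members (number in parentheses), for 26 of the 57 gene lists. Dotted lines mark 7.54% higher and 7.01% lower over all genes tested; 45 of 81 cytosolic ribosomal protein genes were higher and none lower, and 9 of 34 FGF and ERK genes were lower and none higher.

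Several genes of the growth factor pathways of ESCs fell. Of the response and feedback genes of FGF and ERK signalling, 0 of 34 tested members were higher and 9 were lower, with a median of -0.32 (-0.11 after adjustment for length and GC content). The count was 7 to 8 with 1 library left out, 1 higher and 9 lower after that adjustment and 0 higher and 17 lower after rescaling to the same sum. The median of Zbtb18-ES minus control for these genes was -0.40. Mycn, the Myc family gene of ESCs, stood at 653, 685 and 654 in control ESCs and 145, 177 and 196 in Foxj3-ES (-1.95 ± 0.15, adjusted p = 0.000203) and at 128, 153 and 119 in Zbtb18-ES. Its controls lay close together and far above both lines. The ERK phosphatase gene Dusp5 fell by 1.76 on the log2 scale, the early response gene Ier2 by 1.35 and the ERK inhibitor gene Spred1 by 0.90. In the LIF and Stat3 pathway the median was -0.32 (-0.10 after adjustment for length and GC content, Zbtb18-ES minus control -0.45). Of its genes 0 were higher and 4 lower of 20, 4 to 5 with 1 library left out. These were Il6st, the receptor subunit through which LIF signals (-0.75), the feedback inhibitor Socs3, which stood at 1058, 1194 and 918 in control ESCs and 295, 415 and 384 in Foxj3-ES (-1.54 ± 0.16, adjusted p = 0.000653), and the targets Pim3 (-0.78) and Bcl3 (-1.73).

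A number of Wnt genes fell as well. Of the Wnt pathway and its targets 0 of 46 tested members were higher and 9 were lower, with a median of -0.36 (Zbtb18-ES minus control, -0.56). The lower count was 6 to 9 with 1 library left out. After adjustment for length and GC content there were 1 higher and 10 lower, with a median of -0.19. Notum, a secreted enzyme that inactivates Wnt proteins and is itself a Wnt target, stood at 52.9, 55.4 and 59.7 in control ESCs and 15.7, 15.04 and 14.4 in Foxj3-ES (-1.83 ± 0.21, adjusted p = 0.00117). It was also lower than in Zbtb18-ES, at 30.7, 35.4 and 41.6 (-1.19, adjusted p = 0.0372), a call lost without control library 1 or 3 or Foxj3-ES library 1 or 2 or 3 (highest adjusted p = 0.0959). The receptor genes Fzd10 and Fzd5 fell on the log2 scale by 1.58 and 1.24, the R-spondin receptor gene Lgr4 by 0.69, the secreted inhibitor gene Sfrp1 by 0.76 and the cyclin gene Ccnd1 by 0.82. In the Nodal and activin pathway 0 were higher and 6 lower of 18, with a median of -0.77 (Zbtb18-ES minus control, -0.58). The lower count was 3 to 5 with 1 library left out, 3 without control library 2 or 3. Genes for a ligand, a receptor and inhibitors were among those lower. Lefty2, a secreted inhibitor of Nodal, stood at 252, 241 and 192 in control ESCs and 57.7, 37.7 and 39.1 in Foxj3-ES (-2.34 ± 0.19, adjusted p = 0.000292). Its difference from Zbtb18-ES was -1.25 on the log2 scale (adjusted p = 0.0252), a call lost without Foxj3-ES library 2 or 3 (highest adjusted p = 0.0815).

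Both activators and inhibitors were among the genes of other pathways that fell. In the Notch list 2 were higher and 6 lower of 33, with a median of -0.29. The median was -0.16 after adjustment for length and GC content and -0.38 for Zbtb18-ES minus control. Those higher numbered 1 to 2 with 1 library left out, 1 without control library 1 or 3 or Foxj3-ES library 1 or 3, and those lower 3 to 6 with 1 library left out, 3 without Foxj3-ES library 1. Maml1, a coactivator of Notch, fell from 42.5, 65.5 and 38.8 to 11.8, 11.98 and 16.6 (-1.77 ± 0.28, adjusted p = 0.00437), and the receptor gene Notch4 and the ubiquitin ligase gene Dtx1 fell by 1.25 and 0.86 on the log2 scale, but Dtx1 by 0.32 and with no call after adjustment for length and GC content (adjusted p = 0.159). The ligand gene Dll4 moved the other way, from 2.17, 2.98 and 0.125 to 30.1, 14.5 and 12.3 (2.94 ± 0.57, adjusted p = 0.00947). In the Hippo list the median was -0.51 (-0.32 after adjustment for length and GC content, Zbtb18-ES minus control -0.35). The lower count was 3 to 4 with 1 library left out, 3 without control library 1 or 3 or Foxj3-ES library 1. With all libraries 0 were higher and 5 lower of 24. They included Tead1, the DNA-binding partner of YAP (-0.91), the LATS inhibitor Ajuba (-1.02) and the adaptor Sav1 (-0.77). Among retinoic acid genes 6 were lower of 24, 2 to 6 with 1 library left out, 2 without Foxj3-ES library 1 and 3 without control library 3. The median of the list was -0.13 (0.031 after adjustment for length and GC content, Zbtb18-ES minus control -0.46). The receptor gene Rara fell by 1.59 on the log2 scale and the homeobox gene Gbx2 by 2.64.

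Other forkhead genes were lower more often than higher. Of the 26 tested members 1 was higher and 7 were lower, with a median of -0.41 (Zbtb18-ES minus control, -0.50). The lower count was 3 to 7 with 1 library left out. It was 3 without control library 2 or Foxj3-ES library 2 and 4 without control library 1 or 3 or Foxj3-ES library 1. After adjustment for length and GC content there were 1 higher and 3 lower, with a median of -0.24. The forkhead genes had a median GC content of 55.6%, against 50.5% for all mRNA genes. Foxp4, which acts in lung and gut development, stood at 289, 439 and 306 in control ESCs and 88.9, 119 and 130.4 in Foxj3-ES (-1.59 ± 0.20, adjusted p = 0.00168), with no overlap. Foxk2, a repressor of autophagy and metabolism genes, fell by 0.86 on the log2 scale and Foxm1, a driver of mitosis genes, by 0.83, and these 3 kept their calls without each library. Foxd3, a pluripotency factor, fell by 2.65, a call lost without control library 1 or 2 or 3 or Foxj3-ES library 1 or 2 (highest adjusted p = 0.0923), and Foxo3, a target of insulin signalling, by 0.90, a call lost without control library 1 or 2 or Foxj3-ES library 2 (highest adjusted p = 0.0834). Foxi3 was the 1 member that rose (1.56), a call lost without control library 1 or 2 or 3 or Foxj3-ES library 1 or 3 (highest adjusted p = 0.102). Of the mitosis genes, many of which answer to Foxm1, 1 was higher and 1 was lower of 34, 5 higher and 1 lower after adjustment for length and GC content and 0 higher and 6 lower after rescaling to the same sum.

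The forkhead core GTAAACA was looked for in the promoters as a description, with no test. It was found on either strand in 10 of 657 promoters of mRNA genes that rose (1.52%), in 25 of 1001 of those that fell (2.5%) and in 253 of 10820 of all (2.34%). These windows cover only 300 bases and say nothing of other sites.

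Some genes for chromatin enzymes and histones fell. Of the histone methyltransferases and demethylases 0 of 43 tested members were higher and 8 were lower, 4 to 8 with 1 library left out, 4 without Foxj3-ES library 1, and 2 higher and 5 lower after adjustment for length and GC content, with a median transcript of 6449 bases. Dot1l, the methyltransferase of histone H3 lysine 79, fell from 285, 467 and 271 to 149, 161 and 170.3 (-1.04 ± 0.20, adjusted p = 0.00922), Prdm14, a naive pluripotency factor, by 1.08 on the log2 scale and the demethylase gene Kdm4b by 0.83, a call lost after adjustment for length and GC content (adjusted p = 0.0692). Ezh1, the Polycomb methyltransferase of resting cells, rose by 0.80. Replication-dependent histone genes, which are transcribed in S phase and lack poly(A) tails, had 1 higher and 11 lower of 66, with a median of -0.39 (Zbtb18-ES minus control, -1.05), and 2 to 6 with 1 library left out, 2 without control library 3, 4 without Foxj3-ES library 1, 5 without control library 2 and 6 without control library 1 or Foxj3-ES library 2 or 3. Only Hist1h2ah, which stood at 178, 278 and 171 in control ESCs and 33.2, 48.4 and 64.5 in Foxj3-ES (-2.09 ± 0.39, adjusted p = 0.0083), kept its lower call without each library. Histone genes of a cluster are near identical in sequence and reads may have been split among them. Hist3h2ba, a histone gene outside the large clusters, rose by 1.43.

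Genes of fatty acid synthesis that passed the test fell, apart from 1. Of these genes 1 was higher and 4 were lower of 17, the lower count being 2 to 3 with 1 library left out, 2 without control library 1 or Foxj3-ES library 1 or 3. Fasn, the fatty acid synthase, stood at 1107, 1641 and 1071 in control ESCs and 364, 488 and 518 in Foxj3-ES (-1.47 ± 0.20, adjusted p = 0.00232), and the elongase gene Elovl6 fell by 1.05 on the log2 scale. The exception was Me1, which supplies NADPH (0.61), a call lost without control library 1 or 2 or 3 or Foxj3-ES library 1 or 2 (highest adjusted p = 0.105). The tumour suppressor gene Trp53 fell from 1796, 2598 and 1818 to 799, 1313 and 1093 (-0.96 ± 0.20, adjusted p = 0.0127). Of the 30 p53 targets and cell cycle inhibitors 2 were higher, Gadd45b and Gadd45g (6.67%, against 7.54% of all genes). The list held 2 higher and 8 lower after rescaling to the same sum and 5 higher and 1 lower after adjustment for length and GC content. The call of Gadd45b was lost without control library 1 or 3 or Foxj3-ES library 1 or 2 or 3 (highest adjusted p = 0.0845). That of Gadd45g was lost without any 1 of the 6 libraries (highest adjusted p = 0.121). Of the genes of DNA replication and entry into S phase 2 were higher, Gins4 (0.64) and Rfc1 (0.47), and 5 lower of 37, 2 to 4 with 1 library left out, 2 without control library 3 or Foxj3-ES library 1 and 3 without Foxj3-ES library 2, and 0 higher and 19 lower after rescaling to the same sum. The call of Gins4 was lost after rescaling (adjusted p = 0.0991) and that of Rfc1 without control library 1 or 3 or Foxj3-ES library 1 or 2 (highest adjusted p = 0.0733) and after rescaling (adjusted p = 0.501). Among those lower, the DNA replication factor Cdt1 (-0.79) and the cell cycle factor E2f3 (-0.98) fell.

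Families that share the start of a symbol were also counted among genes typed as mRNA, of which 6.11% were higher and 8.94% lower. The share that fell was 11.2% for Zfp, near that of all mRNA genes, 20.6% for Ppp and 28.6% for Nup. The share that rose was 14.5% for Ccdc. Of 339 zinc finger genes named Zfp 4 were higher and 38 lower, 20 to 35 with 1 library left out, 20 without control library 1, 21 without Foxj3-ES library 1, 22 without control library 3, 24 without Foxj3-ES library 3 and 25 without Foxj3-ES library 2. Of 68 phosphatase genes named Ppp 2 were higher and 14 lower, the lower count being 9 to 13 with 1 library left out, 9 without control library 1, and of 21 nucleoporin genes named Nup 0 and 6. Coiled-coil genes named Ccdc had 17 higher and 4 lower of 117, but 4 higher and 19 lower after rescaling to the same sum. The higher count was 8 to 15 with 1 library left out, 8 without control library 3 or Foxj3-ES library 1, 9 without Foxj3-ES library 2 or 3 and 10 without control library 1. The lower count for Nup was 2 to 4 with 1 library left out, 2 without control library 1 or 3 or Foxj3-ES library 1 and 3 without Foxj3-ES library 3. Lists with no called member were those of Hox genes (12 tested), protocadherins (9), metallothioneins and zinc transport (12), fibroblast markers (9) and the formative and primed epiblast (10).

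Genes on the X chromosome were called higher more often than lower, except after rescaling to the same sum. Autosomal genes were called lower more often than higher, except after adjustment for length and GC content. Of 469 named mRNA genes on the X chromosome 48 were higher and 17 lower, with a median of 0.042, and of 13282 on autosomes 755 were higher and 1266 lower, with a median of -0.11. After rescaling to the same sum the counts were 18 higher and 85 lower on the X chromosome and 294 higher and 3914 lower on autosomes, and after adjustment for length and GC content 54 higher and 21 lower and 1177 higher and 1087 lower, with medians of 0.085 and -0.01. X-linked genes had a lower GC content, with a median of 46.02% against 50.8%. Without Foxj3-ES library 3, the library that had almost no Y-linked RNA, the X chromosome held 34 higher and 13 lower genes and a median of 0.08. The higher count was 24 to 45 with 1 library left out, 24 without control library 3, 26 without control library 1, 28 without Foxj3-ES library 2 and 29 without Foxj3-ES library 1. The lower count was 5 to 13 with 1 library left out, 5 without control library 1 or Foxj3-ES library 1, 6 without control library 3 and 9 without Foxj3-ES library 2.

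The Bex and Tceal genes, a cluster of small X-linked genes for proteins that act in transcription and signalling of neural and stem cells, were chosen after their values were seen. Of 11 tested, 5 were higher and 0 lower, with a median of 0.73 (Zbtb18-ES minus control, 0.30), and 4 higher and 0 lower after rescaling to the same sum. Bex1 stood at 3054, 5334 and 3502 in control ESCs and 8572, 8367 and 9681 in Foxj3-ES (1.202 ± 0.20, adjusted p = 0.00546). Wbp5, also known as Tceal9, stood at 1111, 1034 and 909 in control ESCs and 2655, 2690.3 and 2492 in Foxj3-ES (1.36 ± 0.15, adjusted p = 0.000915) and Ngfrap1, also known as Bex3, at 1585, 2131 and 1696 in control ESCs and 3613, 3306 and 4315 in Foxj3-ES (1.06 ± 0.16, adjusted p = 0.00331). In all 3 genes the groups did not overlap, and Bex4 rose by 0.81 as well. Elsewhere on the X chromosome, the nucleosome-binding protein gene Hmgn5 rose from 43.9, 34.9 and 45.2 to 185, 169.8 and 121 (1.903 ± 0.28, adjusted p = 0.00284), the ubiquitin ligase gene Rnf128 by 1.45 and the thymosin gene Tmsb4x by 0.94. The homeobox gene Rhox5 stood at 146, 209 and 125 in control ESCs and 433, 583 and 1926 in Foxj3-ES (2.32 ± 0.62, adjusted p = 0.0325), where Foxj3-ES library 3 was far above the others, and its call was lost without control library 1 or 2 or 3 or Foxj3-ES library 2 or 3 (highest adjusted p = 0.0964).

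**Figure D5:**
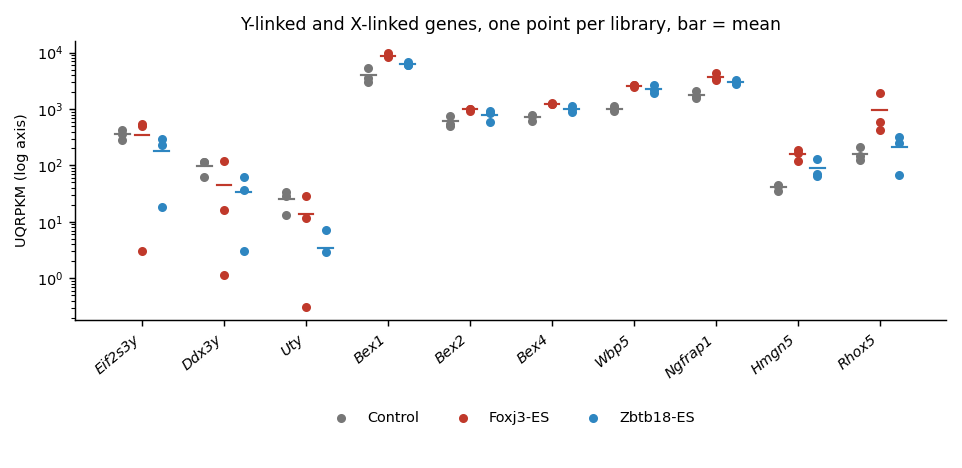
UQRPKM (log axis) of 3 Y-linked and 7 X-linked genes, with 1 point per library and a bar at the mean of each group. Foxj3-ES library 3 lies at 3.08 for Eif2s3y against 277 to 548 in the control libraries and the other Foxj3-ES libraries, while Bex1 lies at 8367 to 9681 in Foxj3-ES and 3054 to 5334 in control ESCs; a Zbtb18-ES library listed at 0 for Uty is not drawn.

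Small RNA genes were measured only as far as these libraries hold them. The methods of the study do not state whether poly(A) RNA was selected or ribosomal RNA removed. Of the genes typed as tRNA 0 were higher and 13 lower of 76, 2 to 14 with 1 library left out, 2 without control library 1, 3 without control library 3 or Foxj3-ES library 1 and 7 without Foxj3-ES library 2, and of those typed as miRNA 1 was higher and 13 were lower of 127, the lower count being 7 to 15 with 1 library left out, 7 without control library 1 and 8 without control library 3. The called miRNA gene with the highest level was Mir5099, whose RefSeq hairpin (GRCm38.p6, chr12:36816205-36816278, plus strand) is shown because reads across its 74 bases may also come from longer transcripts.
Mir5099: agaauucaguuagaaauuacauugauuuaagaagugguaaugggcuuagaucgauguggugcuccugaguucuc
It fell from 2728, 2042 and 2318 to 631, 635 and 367 (-2.15 ± 0.29, adjusted p = 0.0022) and stood at 627, 474 and 285 in Zbtb18-ES, so both lines lay below every control library. Mir7016, Mir7024 and Mir7074 were listed at 0 in all Foxj3-ES and all Zbtb18-ES libraries, whereas the control libraries held 12.98, 27.2 and 59.9 of Mir7016, 15.1, 15.8 and 6.95 of Mir7024 and 7.42, 7.76 and 13.7 of Mir7074. A single read adds much to the value of features this short, so these rest on few reads. Of the snoRNAs, which guide the modification of ribosomal RNA, 7 were higher and 4 lower of 114. These shares, 6.14% and 3.51%, lay under the 7.54% and 7.01% of all genes. There were 4 higher and 13 lower after rescaling to the same sum and 16 higher and 4 lower after adjustment for length and GC content. The higher count was 2 to 7 with 1 library left out, 2 without Foxj3-ES library 1, 3 without control library 2 and 4 without control library 3 or Foxj3-ES library 3. The lower count was 3 to 10 with 1 library left out, 10 without control library 2, so that without that library more snoRNAs were lower than higher. Snora31 fell from 221, 175 and 250.2 to 47.6, 53.1 and 48.5 (-2.08 ± 0.24, adjusted p = 0.00117) and lay -1.33 from Zbtb18-ES on the log2 scale (adjusted p = 0.0414), and Snora65 rose from 1711, 1451 and 1794 to 4026, 3299 and 4161 (1.21 ± 0.21, adjusted p = 0.0061).

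The direct comparison of Foxj3-ES with Zbtb18-ES passed for few genes. In that test 153 genes (0.687% of 22268) passed, and 76 of them also differed between Foxj3-ES and control. Of the 76, 40 were higher in Foxj3-ES than in both other groups and 32 were lower than in both. With 1 of the control or Foxj3-ES libraries left out the 153 became 22 to 307. Car8, a carbonic anhydrase relative of the nervous system, stood at 10.6, 13.5 and 11.5 in control ESCs and 34.5, 30.6 and 45.02 in Foxj3-ES (1.54 ± 0.28, adjusted p = 0.0072) and at 8.27, 7.17 and 10.1 in Zbtb18-ES. Tmem40 stood at 81.4, 86.01 and 80.6 in control ESCs and 24.5, 13.9 and 40.5 in Foxj3-ES (-1.74 ± 0.37, adjusted p = 0.0129) and at 166, 79.9 and 138 in Zbtb18-ES. Their differences from Zbtb18-ES were 1.98 (adjusted p = 0.0198), lost without Foxj3-ES library 1 or 2 (highest adjusted p = 0.0641), and -2.298 (adjusted p = 0.0272), lost without control library 3 or Foxj3-ES library 1 or 2 (highest adjusted p = 0.0873). Both kept their call against control without each library. The carbonic anhydrase gene Car4 and the fibrinogen chain gene Fgg were also higher than in both groups (1.67 and 1.87 against control), and Xaf1, an apoptosis gene, and Dusp27 were lower (-1.14 and -1.37). Their calls against control depended on single libraries, lost for Car4 without control library 1 or 3 or Foxj3-ES library 1 or 2 or 3 (highest adjusted p = 0.143), for Fgg without control library 1 or 2 or 3 or Foxj3-ES library 2 or 3 (highest adjusted p = 0.1), for Xaf1 without control library 1 or 3 or Foxj3-ES library 1 or 2 (highest adjusted p = 0.079) and for Dusp27 without control library 1 or 2 or Foxj3-ES library 1 or 3 (highest adjusted p = 0.0827). For the other genes named above that have no value for this test, it did not pass.

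The 8 ESC markers summed to 37643 to 41435 in control ESCs and 42587 to 45934 in Foxj3-ES, with Sox2, Nanog and Lin28a lower and none higher. Of the genes of core pluripotency 0 were higher and 6 lower of 15, with a median of -0.58 (Zbtb18-ES minus control, -0.56). Of those of naive pluripotency 0 were higher and 6 lower of 17, with a median of -0.64 (Zbtb18-ES minus control, -0.42). The lower counts were 2 to 6 with 1 library left out, 2 without Foxj3-ES library 1 for the core list, and 5 to 7 with 1 library left out for the naive list. Nanog stood at 2591, 1965 and 2417 in control ESCs and 683, 1005 and 796 in Foxj3-ES (-1.496 ± 0.17, adjusted p = 0.00117), and kept its call, whereas that of Sox2 was lost without control library 2 or 3 or Foxj3-ES library 1 or 2 (highest adjusted p = 0.102) and that of Lin28a without Foxj3-ES library 1 (highest adjusted p = 0.0547). The cells thus carried the ESC markers, while several of these genes were lower. The 13 fibroblast markers summed to 195 to 247 and 181 to 277, with Lum and Fap at 0 in all 6 libraries and none of the 7 tested called. The 9 markers of extraembryonic endoderm summed to 25.5 to 28.03 and 21.1 to 45.2, with Afp and Ttr at 0. The 9 trophoblast markers summed to 107 to 116 and 119 to 169, with Ascl2 higher, Eomes lower and Tpbpa at 0. Eomes fell by 0.73 on the log2 scale, a call lost without control library 1 or 2 or 3 or Foxj3-ES library 1 or 3 (highest adjusted p = 0.152). The 5 mesoderm markers summed to 14.8 to 21.2 and 8.21 to 12.3, and the 5 markers of neural progenitors to 48.98 to 88.2 and 20.1 to 43.3, so both sums were lower in every Foxj3-ES library than in any control library. Neuron markers summed to 399 to 663 and 360.1 to 407, with Dcx at 0, and Tubb3 alone stood at 391 to 653 and 347 to 405. Single genes also set much of other sums. Thy1 stood at 130 to 137 and 126 to 207 among the fibroblast markers, and Pou5f1 at 13277 to 14115 and 17716 to 18268 among the ESC markers. Apoa1 held 33.7 of the endoderm sum of 45.2, in Foxj3-ES library 2. The highest mesoderm marker, Tbx6, reached 8.6, so that sum rests on low values. In such bulk samples fewer cells of a type and less RNA per cell cannot be told apart, and the part of a few differentiated cells in the differences above was not tested.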

How the data were processed

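The 9 ESC libraries, made from extracted total RNA, were sequenced on an Ion Proton. Whether poly(A) RNA was selected is not stated in the methods of the study. Of these libraries 6, 3 control and 3 Foxj3-ES, formed the comparison, while the 3 Zbtb18-ES libraries shared the estimate of the spread. The authors deposited 1 table of 44788 genes whose RPKM values they had normalised to the library's upper quartile (UQRPKM), and the submitters' notes name the build mm10 and DESeq. How reads were aligned and counted, with which annotation and whether by strand, is not given in the sources used here. These values are not counts: 58.3% of 14582 low genes were whole multiples of 1 step within 0.01, so reads were not recovered, no count test was run and the absolute depth is unknown. Libraries in which a read is worth more have larger counting error in low genes.

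Values were taken as log2(UQRPKM + 1) for the 22268 genes with at least 1 in at least 3 libraries. Differences were tested with limma 3.58.1 (R 4.3.3) with the prior spread following the mean level, two-sided, with Benjamini-Hochberg adjustment over all genes tested and a threshold of 0.05, and the code was tested on simulated data. A fold change on this scale understates the change of low genes. Figures and counts were made with Python 3.11.15 and pandas 2.3.3. Coordinates, lengths and GC content came from GENCODE M21 (GRCm38, the same assembly as mm10), matched for 30996 genes by symbol, for 1215 by an older symbol and for 86.8% of those tested. Promoter and miRNA sequences came from RefSeq (GRCm38.p6).

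The gene lists and named genes were chosen with earlier results of these data known. Named genes came from a rule: 25 genes with the largest rise and 25 with the largest fall among called mRNA genes whose groups did not overlap and whose higher mean was at least 10, the most abundant of those past 2-fold, the largest called members of each list, and the genes that differed most from Zbtb18-ES. Members that define a list, markers, mitochondrial genes, the Bex cluster, X-linked and small RNA genes were added after their values were seen. The candidate genes of the study were left out. Some further genes are not reported here. The alternatives were other pseudocounts (0.1 and 5), filters (none, or a value of 5), scaling to the same sum, quantile normalization, the 6 libraries alone, a replicate block, mRNA genes alone, an adjustment for transcript length and GC content (loess within each library, span 0.3), no trend, and each library left out in turn.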

Additional observations from a re-analysis of the deposited data

Results flagged for a closer look

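The following differences were flagged because the effect in Foxj3-ES and the effect in Zbtb18-ES, each against the same controls, differed by the direct limma test of the lines (n = 3 libraries per line, values on the log2(UQRPKM + 1) scale, Foxj3-ES minus Zbtb18-ES). Among genes of metabolism, Adm differed by 1.86 (adjusted p = 0.0233) and Ldhb by 0.90 (adjusted p = 0.0415). Among ribosomal protein genes, Rpl37 differed by 0.85 (adjusted p = 0.0429) and Rpl13 by 1.27 (adjusted p = 0.0317). Car8, Car4 and Fgg differed by 1.98, 3.46 and 2.95 (adjusted p = 0.0198, 0.0208 and 0.0309). On the lower side, the secreted inhibitors Notum and Lefty2 differed by -1.19 and -1.25 (adjusted p = 0.0372 and 0.0252), and Xaf1, Tmem40 and Dusp27 by -2.295, -2.298 and -2.15 (adjusted p = 0.00756, 0.0272 and 0.0272). Of genes named for other reasons, the ESC marker Lin28a differed by 0.82 (adjusted p = 0.0497) and the snoRNA Snora31 by -1.33 (adjusted p = 0.0414). In the opposite sense, Fblim1, a gene of cell adhesion, fell in Foxj3-ES from 1118, 1343 and 1169.8 to 399, 526 and 544 and stood at 252, 166 and 213 in Zbtb18-ES, so that it lay 1.22 above that line (adjusted p = 0.0231). Xaf1 kept this call with any 1 control or Foxj3-ES library left out; the calls were lost for Fgg without control library 1 or 3 or Foxj3-ES library 1 or 2 or 3 (highest adjusted p = 0.104), for Car4 without Foxj3-ES library 1 or 2 (highest adjusted p = 0.0748), for Dusp27 without Foxj3-ES library 1 or 2 or 3 (highest adjusted p = 0.0912), for Lin28a without control library 1 or 3 or Foxj3-ES library 1 or 2 or 3 (highest adjusted p = 0.129), for Snora31 without control library 1 or 3 or Foxj3-ES library 1 or 2 or 3 (highest adjusted p = 0.112) and for Fblim1 without Foxj3-ES library 2 or 3 (highest adjusted p = 0.0783).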

How the results depend on the processing

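The 1679 higher and 1562 lower genes became 874 and 4695 when the libraries were rescaled to the same sum and 1099 and 1622 among mRNA genes alone. With 1 library left out there were 937 to 1787 higher and 754 to 1237 lower genes. The other alternatives kept both counts within 1.5 times. The 153 genes that differed between Foxj3-ES and Zbtb18-ES became 94 with no filter, 333 among mRNA genes alone, 336 after adjustment for length and GC content and 22 to 307 with 1 library left out. The cause was not tested. Foxj3 differed by 0.26 from control (adjusted p = 0.388), by 0.15 to 0.44 with 1 library left out and by -0.087 (adjusted p = 0.772) after rescaling to the same sum. Calls against control were followed through the alternatives for 169 of the named genes that passed the test. Of these, 134 kept their call in all 17 alternatives that included them, 145 kept it with each library left out, and none changed direction. Quantile normalization ended the calls of Bsg, Npm1, Rps9, S100a10 and Tmsb4x, which no left-out library ended. The adjustment for length and GC content reduced the differences of Bex4, Dot1l, Foxp4, Hspg2, Notch4, Pim3, S100a10 and Ulk1 by over 1.5 times, with their calls kept. Same-numbered control and Foxj3-ES libraries did not deviate together (r = 0.059, 0.014 and -0.052), so the numbers were not taken as pairs, and a replicate block gave 1525 higher and 1305 lower genes and 61 that differed between the lines. The larger worth of a read in the Foxj3-ES libraries and the unknown depth limit what can be said of genes at low UQRPKM.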

Other observations

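Beyond the lists, the largest rises among named mRNA genes included genes of fat metabolism. G0s2, which inhibits the lipase of lipid droplets, stood at 6.097, 8.12 and 7.16 in control ESCs and 60.1, 66.4 and 41.3 in Foxj3-ES (2.79 ± 0.42, adjusted p = 0.00321), and Acot13, a thioesterase of acyl-CoA, at 179.8, 237 and 171 in control ESCs and 758, 1396 and 779.6 in Foxj3-ES (2.27 ± 0.23, adjusted p = 0.000641). Acadl, which oxidises long acyl chains and was the 1 called gene of the 19 tested for fatty acid oxidation (2 higher and 0 lower after adjustment for length and GC content, 1 higher and 6 lower after rescaling to the same sum), rose by 0.88. Zmynd10, needed to assemble the dynein arms of cilia, rose from 6.67, 5.75 and 6.87 to 38.9, 26.5 and 39.7 (2.26 ± 0.28, adjusted p = 0.00162), the homeobox gene Barx2 by 2.08 and the muscle adaptor gene Stac3 by 2.300. Among abundant transcripts the stathmin gene Stmn2 rose from 2246, 2460 and 2042 to 6583, 6274 and 5793 (1.47 ± 0.23, adjusted p = 0.00374), and Bsg, a partner of lactate transporters, by 1.02.

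The largest falls included developmental regulators. Sall3, a zinc finger factor, fell from 21.5, 33.9 and 25.1 to 2.12, 5.52 and 2.36 (-2.74 ± 0.38, adjusted p = 0.00243), the POU factor gene Pou4f2 from 45.4, 61.2 and 61.998 to 12.04, 10.01 and 7.44 (-2.41 ± 0.35, adjusted p = 0.00298) and the Krüppel-like factor gene Klf13 from 78.1, 125 and 89.6 to 14.8, 25.1 and 20.6 (-2.22 ± 0.33, adjusted p = 0.00314). Peg12, an imprinted gene expressed from the paternal allele that is not in the list of imprinted genes, fell by 2.56 on the log2 scale. In these genes the highest Foxj3-ES library lay below the lowest control library. The receptor genes Kit and Epha2 fell by 0.79 and 1.198 on the log2 scale. In ribosome biogenesis 5 genes were higher and 2 lower of 36, but 1 higher and 11 lower after rescaling to the same sum and 9 higher and 2 lower after adjustment for length and GC content, and the higher count was 3 to 7 with 1 library left out, 3 without control library 3 or Foxj3-ES library 1 or 2 or 3; the nucleolar gene Npm1 rose by 0.88 and Polr1b, a subunit of RNA polymerase I, fell by 0.76 on the log2 scale. All genes named in these paragraphs kept their calls with any 1 library left out.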
